A study of Mus musculus with 4 samples.

Results

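The 8 genes described here encode proteins that hold T cells to vessel walls and tissue, and were followed across T cell states and 2 genotypes: *Selplg* and *Cd44*, which encode selectin ligands, and the integrin chains *Itgal*, *Itgb2*, *Itga4*, *Itgb1*, *Itgb7* and *Itgae*. They were taken by symbol from the gene list of the count tables, where all 8 of 8 were found, each under a single identifier, and all 8 were among the 11566 genes tested. The cells were CD8+ T cells of the spleen that bound the H-2Db-GP33 tetramer, sorted on day 8 after infection with LCMV Armstrong. They came from 2 mixed bone marrow chimeras, in which congenic WT (CD45.1) and *Bcl3-/-* (CD45.2) marrow had been given together to sub-lethally irradiated *Rag1-/-* mice, all on the C57bl/6 background. Each chimera gave 1 library per genotype, so that WT1 and KO1 shared one animal and WT2 and KO2 the other, and n = 2 libraries per genotype. The *Bcl3* deletion was in the germ line of the donor and not limited to T cells, and genotype and CD45 allele cannot be told apart, since every *Bcl3-/-* library was CD45.2. The recipients lacked mature T and B cells of their own, but other cells of the host remain.

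Circulating T cells first roll on selectins of the vessel wall through ligands such as PSGL-1, the product of *Selplg*, and CD44, the product of *Cd44* and also a receptor for hyaluronan. Integrins, each a pair of an alpha and a beta chain, then hold the cell firmly once chemokine or antigen receptor signals have opened them. *Itgal* and *Itgb2* encode LFA-1, which binds ICAMs, *Itga4* pairs with *Itgb1* to form VLA-4, a receptor for VCAM-1, or with *Itgb7* to form the gut-homing receptor for MAdCAM-1, and *Itgae* encodes CD103, an alpha chain that pairs with *Itgb7* to bind E-cadherin of epithelia and that marks many tissue-resident T cells. Bcl-3, the protein that the mutant cells lack, is an atypical IkappaB protein that works with NF-kappaB p50 and p52 in the nucleus.

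In this 3′ assay each captured transcript is counted once by its unique molecular identifier (UMI), so that counts do not grow with transcript length, and levels are stated in CPM, the count of a gene scaled by the UMI total of its library or cell class (the usual counts-per-million unit). How efficiently the 3′ end of each gene is captured is unknown, so that levels of different genes are set side by side only as orders of size. After barcodes below 500 genes or above 10% mitochondrial UMIs had been dropped, WT1 had 4941 cells left, WT2 8092, KO1 5366 and KO2 6494. WT2 was the shallowest library, with a median of 2019 UMIs per cell against 3571 in WT1, 3620.5 in KO1 and 2948 in KO2. A UMI of *Cd8b1*, which encodes a chain of the CD8 receptor, was found in 96.7%, 91.2%, 97.7% and 96.5% of the cells of WT1, WT2, KO1 and KO2, and one of *Cd4* in at most 0.891%. Since B-like cells, which should lack it, also held one in 65.7%, 47.9%, 76.9% and 56.7% (median depths of 2297, 1974, 2901 and 2637 UMIs), these shares do not check the label alone. By level, *Cd8b1* had 2021, 1838, 2195 and 2193 CPM in the T cell clusters against 555, 496, 685 and 479 CPM in the B-like cells, and *Cd3d*, a chain of the T cell receptor complex, had 1537, 1524, 1530 and 1437 CPM against 424, 415, 492 and 324 CPM. The libraries also held cells of other types, as B-like, plasma-like and myeloid-like clusters showed, and the 8 measured myeloid markers summed to 2913, 2818, 3851 and 4082 CPM in the same order, with *Lyz2* the most abundant in WT1 and WT2 and *S100a8* in KO1 and KO2. Any 2 libraries shared between 37 and 63 cell barcodes. The targeted gene *Bcl3* stood at 33.2 and 27.6 CPM in WT1 and KO1 and at 108 and 86.6 CPM in WT2 and KO2. It differed more between the chimeras than between the genotypes, and since no source used here names the deleted exons, these 3′ counts do not check the genotype.

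The promoters of the genes that carried the main differences are shown first, in order to place them. *Itgb7* spans bases 102215995 to 102231944 of chromosome 15 (minus strand), and *Itgb1* bases 128685654 to 128733200 of chromosome 8 (plus strand) (GENCODE vM21, GRCm38). The windows below run from 250 bases before to 50 bases after the RefSeq start (GRCm38.p6), chr15:102231886-102232185 on the minus strand and chr8:128685404-128685703 on the plus strand. Capitals mark matches to GGGCGG, the GC box of Sp and KLF factors, on either strand.
Itgb7: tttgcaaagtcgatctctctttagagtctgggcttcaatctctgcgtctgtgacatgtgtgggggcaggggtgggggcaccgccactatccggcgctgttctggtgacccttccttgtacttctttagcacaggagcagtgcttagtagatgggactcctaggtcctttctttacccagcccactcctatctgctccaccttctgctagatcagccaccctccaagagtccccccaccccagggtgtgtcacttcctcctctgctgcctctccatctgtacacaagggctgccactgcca
Itgb1: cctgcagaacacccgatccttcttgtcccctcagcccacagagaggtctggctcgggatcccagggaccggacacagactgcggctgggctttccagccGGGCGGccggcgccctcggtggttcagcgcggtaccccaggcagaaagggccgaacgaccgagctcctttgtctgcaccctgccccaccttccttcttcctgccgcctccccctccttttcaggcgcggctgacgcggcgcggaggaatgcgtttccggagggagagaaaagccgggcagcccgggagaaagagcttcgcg
Neither window held a match to the kappaB consensus, which is found in 4.51% of the 32851 windows of the same length, or to the RUNX motif TGTGGT, which is found in 16.8%. The GC box was found once, in the window of *Itgb1*, and in 35.7% of all windows. These matches describe letters only and say nothing on what binds there.

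Of the other members, *Selplg* lies on chromosome 5 (113818536 to 113832644, minus strand), *Cd44* on chromosome 2 (102811141 to 102901665, minus strand), *Itgal* on chromosome 7 (127296260 to 127335138, plus strand) and *Itgb2* on chromosome 10 (77530252 to 77565708, plus strand). *Itga4* lies on chromosome 2 (79255426 to 79333123, plus strand), where the end of *Cerkl* on the opposite strand overlaps it. *Itgae* lies on chromosome 11 (73090583 to 73147446, plus strand), and *Haspin* lies inside it on the opposite strand with 1090 UMIs in the 4 libraries. Whether the counting used the strand is not given in the sources used here, so that the few *Itgae* UMIs below carry this uncertainty.

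All members but *Itgae* were plainly detected in all libraries, while *Itgae* was nearly absent. *Selplg* was the most abundant, with 1273 and 1301 CPM in WT1 and WT2 and 1412 and 1472 CPM in KO1 and KO2. *Itgb7* followed with 780, 986, 620 and 766 CPM, and then *Itgb2* with 487, 481, 528 and 546 CPM. The levels of *Itgb1*, *Itga4* and *Itgal* lay between 148 and 337 CPM and overlapped in their order. *Cd44* stood at 75.2, 64.3, 74.9 and 72.3 CPM. *Itgae* had 22 and 28 UMIs in WT1 and WT2 and 45 and 54 UMIs in KO1 and KO2, which is 1.09, 1.46, 2.06 and 2.51 CPM. With each cell thinned to 1000 UMIs, a UMI of *Selplg* was found in 71.4%, 72.0%, 74.8% and 75.4% of the cells of WT1, WT2, KO1 and KO2, and one of *Itgae* in 0.142%, 0.178%, 0.224% and 0.247%. The exact 95% interval of the *Itgae* share in WT1 ran from 0.0573% to 0.293% and that in KO2 from 0.142% to 0.401%, counting error only, so that they overlapped. A thinned cell of the T cell clusters had a UMI of 2.31, 2.43, 2.27 and 2.46 of the 8 members on average in the same order.

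**Figure D1:**
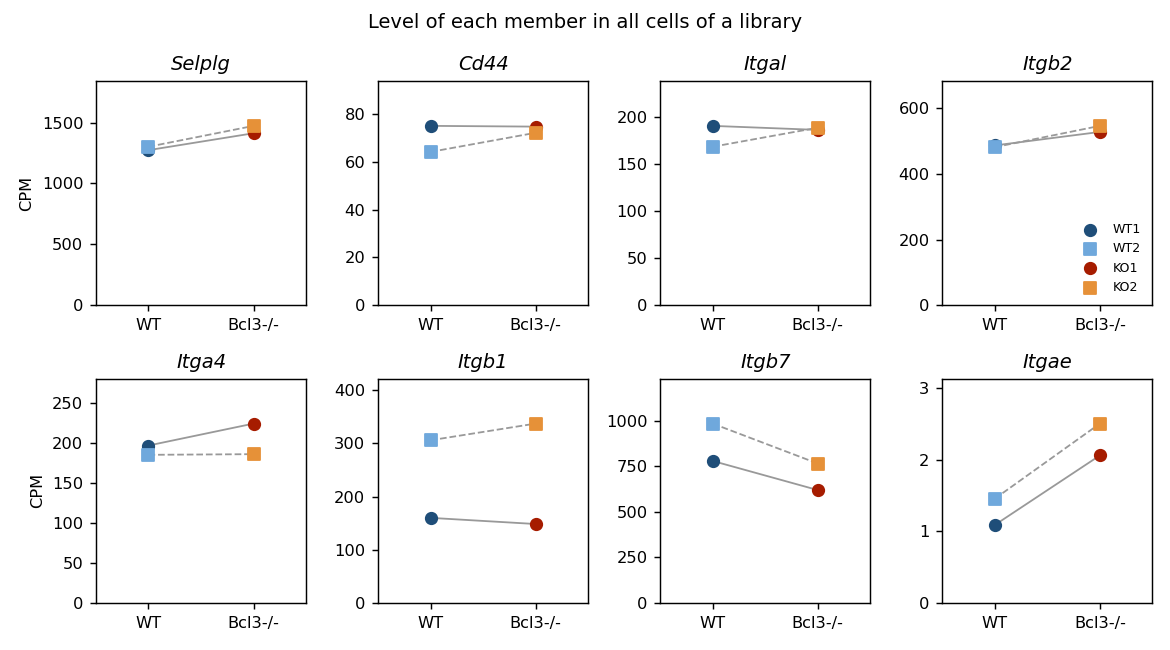
CPM of each member in all cells of a library, by genotype, with points for the libraries and lines joining the WT and Bcl3-/- library of a chimera (solid, chimera 1; dashed, chimera 2). Itgb7 is lower in the Bcl3-/- library of both chimeras, and Itgb1 stands at 160 and 148 CPM in chimera 1 and at 306 and 337 CPM in chimera 2.

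To compare the genotypes, the UMIs of all cells of a library were added up and edgeR's quasi-likelihood test was run on the 4 sums, because the cells of 1 animal are no replicates of a genotype. *Itgb7* was lower in *Bcl3-/-* cells, the only member whose call depended on the pairing of the libraries. WT libraries had 883 ± 145 CPM (SD, n = 2), against 693 ± 103 CPM (SD, n = 2) in *Bcl3-/-* cells, and both *Bcl3-/-* libraries lay below both WT libraries, though KO2 (766) only just below WT1 (780). The log2 fold change was −0.37 (standard error 0.14), with an adjusted p of 0.276 in edgeR without a block, where none of the 8 members and 0.363% of the 11566 genes tested were called at an adjusted p of 0.05. DESeq2 called none of the members either (1.66% of its genes), with an adjusted p of 0.165 for *Itgb7*. Within a chimera the difference was nearly the same, −0.33 in chimera 1 and −0.36 in chimera 2 on the log2 scale. With chimera as a replicate block, edgeR gave −0.36 ± 0.07 (SE) on the log2 scale (adjusted p = 0.00513), and *Itgb7* fell while the other 7 members were not called. In that fit 9.65% of all genes were called, so that 1 of 8 members is close to the background. Without a block, the value was −0.23 without WT2 and −0.50 without WT1.

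The *Itgb7* difference was also read from shares of cells and from T cell clusters alone. In cells thinned to 1000 UMIs, a UMI of *Itgb7* was present in 53.4% and 62.6% of WT cells (WT1 and WT2) and in 45.4% and 53.5% of Bcl3-/- cells (KO1 and KO2). The means differed by −8.61 percentage points, with an exact permutation p of 0.67 (2-sided) in a test that does not use the pairing. Within each chimera the *Bcl3-/-* share was the lower one, and the overlap was between WT1 and KO2, of different chimeras. B-like cells thinned in the same way held one in 24.8%, 31.5%, 19.4% and 22.0% in WT1, WT2, KO1 and KO2 (105 to 134 cells), below the share over all cells of each library. Their level was also lower in both *Bcl3-/-* libraries, with 316, 375, 211 and 234 CPM on 86 to 112 UMIs, and barcodes with 10 to 100 UMIs, which hold free RNA, had 1063, 955, 790 and 869 CPM. The part of free RNA in the B-like values, and in the difference between the genotypes, was not tested. Without thinning, where depth differed between the libraries, the shares were 89.2% and 83.0% in WT1 and WT2 and 83.8% and 85.5% in KO1 and KO2, and the genotypes overlapped. Libraries of 2 against 2 allow no p under 0.33. Over T cell clusters alone, which leaves out the B-like, plasma-like and myeloid-like cells, the clusters smaller than 1% of a library and the mixed KO1 cluster described with the states, the log2 fold change was −0.34 with the block (edgeR, adjusted p = 0.0263, 5.89% of genes called). Of the *Itgb7* UMIs, 3.71%, 3.79%, 9.86% and 3.86% came from the clusters left out in WT1, WT2, KO1 and KO2. In KO1 these were 1333 UMIs, of which 686 were from the mixed cluster.

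**Figure D2:**
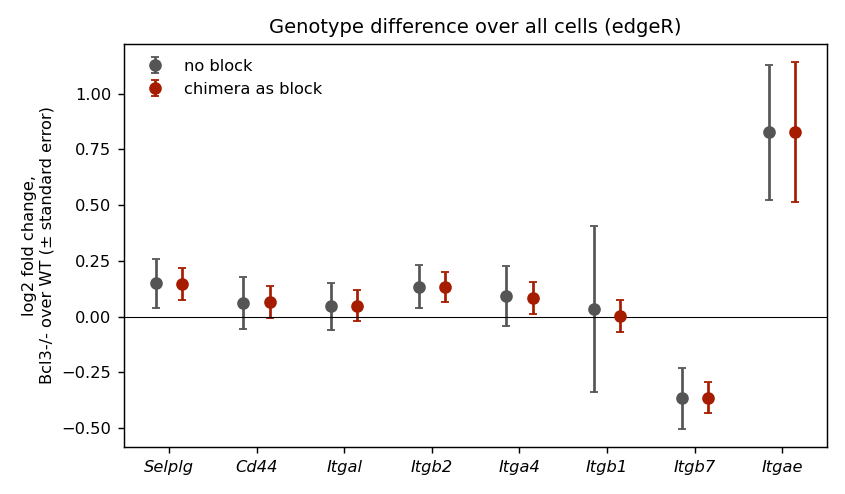
log2 fold change of Bcl3-/- over WT for each member over all cells, with its standard error, from edgeR without a block (grey) and with chimera as a replicate block (red), n = 2 libraries per genotype. The estimates hardly move with the block while the errors shrink for all members but Itgae, most for Itgb1 (0.37 to 0.07), and Itgb7 is the lowest member in both fits.

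*Selplg*, *Itgb2* and *Itgae* were higher in both *Bcl3-/-* libraries than in both WT libraries, and no test called them. With *Itgb7*, this makes 4 of 8 members whose genotypes did not overlap, against 44.5% of all genes tested. For *Selplg* the log2 fold change was 0.15 ± 0.11 (SE), with an adjusted p of 0.567 in edgeR and 0.230 with the block, and for *Itgb2* it was 0.13 ± 0.10 (SE), with an adjusted p of 0.557 and 0.246. The thinned share of cells with an *Itgb2* UMI was 38.3% and 38.1% in WT1 and WT2 and 40.4% and 41.2% in KO1 and KO2. The groups did not overlap (exact permutation p = 0.33, the smallest possible). In the unnamed T cell clusters, described with the states, it was 40.1%, 39.1%, 39.4% and 39.1% in the same order. At 2000 UMIs it was 63.5%, 64.8%, 60.4% and 63.2% there, with both *Bcl3-/-* libraries below both WT libraries. This class holds different clusters in each library. It was also read without the WT1 cluster led by *Cx3cr1* and the KO1 cluster led by *Tcf7*, a choice made after seeing the data. The *Itgb2* levels were then 497 and 506 CPM in WT1 and WT2 and 549 and 539 CPM in KO1 and KO2. Shares of cells were not taken without these clusters. The Zeb2-Cx3cr1 clusters, where *Itgb2* was highest, held 5.18%, 12.1%, 21.4% and 18.9% of the cells of WT1, WT2, KO1 and KO2. The part of cluster sizes in the difference was not tested. For *Itgae* the log2 fold change was 0.83 ± 0.30 (SE), with an adjusted p of 0.273 in edgeR and 0.117 with the block. It rested on 22 to 54 UMIs a library. *Cd44* (0.06), *Itgal* (0.05) and *Itga4* (0.09) had log2 fold changes near 0 whose libraries overlapped between the genotypes. The sign was the same in both chimeras for 5 of 8 members, against 67.3% of all genes tested. The 8 members had a median log2 fold change of 0.08, and all genes tested one of 0.01.

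*Itgb1* differed between the chimeras and not between the genotypes. It stood at 160 CPM in WT1 and 148 in KO1, against 306 in WT2 and 337 in KO2, so that both libraries of chimera 2 lay above both of chimera 1 by a wide margin. The log2 ratio of chimera 2 over chimera 1 was 0.93 in WT and 1.18 in *Bcl3-/-* cells. *Itgb1* was the 1 member of 8 that was more than 1.5-fold apart in the same direction in both genotypes, as were 0.865% of all genes tested. The chimera term of the blocked edgeR fit was a comparison added after these values had been seen, and so restates them. It put chimera 2 above chimera 1 by 0.98 ± 0.07 (SE) on the log2 scale (edgeR, adjusted p = 1.87e-06). No other member was called in it, with 3.16% of genes called. Each chimera was 1 animal, and the fit takes its WT and *Bcl3-/-* libraries as replicates. The error and p therefore leave out variation between animals and cannot test a difference between them. Between the genotypes, the log2 fold change of *Itgb1* was 0.03 (standard error 0.37, edgeR without a block). The libraries of chimera 2 were also the higher ones within T cell states. In the unnamed T cell clusters *Itgb1* had 154 CPM in WT1 and 143 in KO1 against 325 in WT2 and 357 in KO2, and in the interferon-stimulated clusters 121 and 118 against 278 and 277 CPM. The cycling class had 154 and 165 against 306 and 347 CPM. In the Zeb2-Cx3cr1 clusters the gap was smaller, with 234 and 222 against 334 and 400 CPM (log2 ratio 0.51 in WT and 0.85 in *Bcl3-/-* cells). The Tcf7-Ccr7 clusters had 329 CPM in WT1 against 442 in WT2 and 413 in KO2, and KO1 had 200 CPM at resolution 1.2. Barcodes with 10 to 100 UMIs, which hold free RNA, showed it too, with 207 and 197 CPM in chimera 1 and 344 and 379 CPM in chimera 2. In B-like cells the levels were 76.0, 60.3, 42.3 and 78.9 CPM in WT1, WT2, KO1 and KO2, without a split by chimera. The chimeras were from independent experiments, so that animal and experiment cannot be told apart. What sets them apart was not tested.

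**Figure D3:**
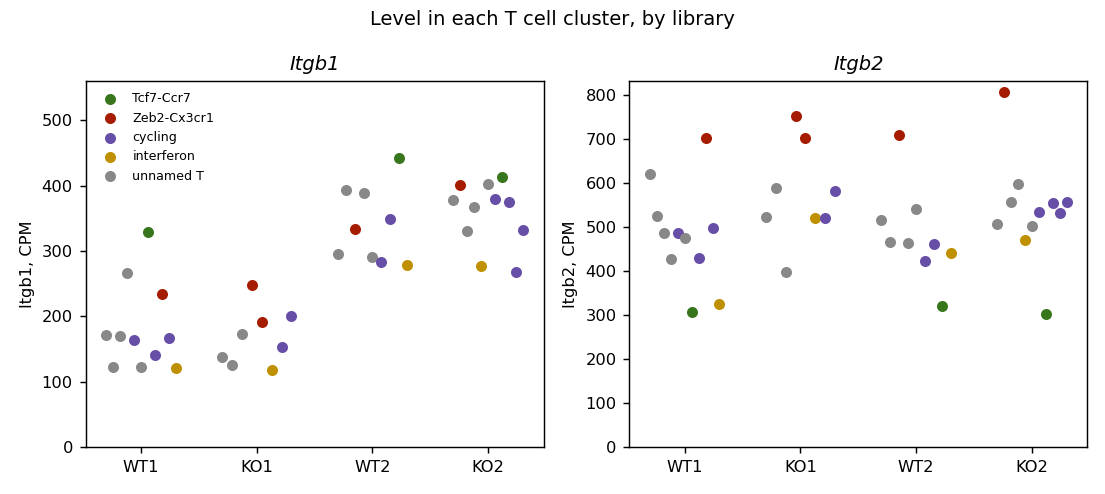
CPM of Itgb1 (left) and Itgb2 (right) in each T cell cluster of at least 1% of a library, coloured by state and ordered by library. Itgb1 lies between 118 and 329 CPM in the clusters of chimera 1 and between 268 and 442 CPM in those of chimera 2, while Itgb2 is highest in the Zeb2-Cx3cr1 clusters of all 4 libraries and lowest in the Tcf7-Ccr7 clusters of the 3 libraries that have one.

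T cell states were found by clustering each library with all adhesion genes kept out of the variable genes, and 39 T cell clusters of at least 1% of a library resulted. Clusters with *Tcf7*, *Ccr7* and *Id3* among their leading genes, which mark memory precursors and naive cells (the Tcf7-Ccr7 clusters), held 296 cells in WT1, 460 in WT2 and 211 in KO2. KO1 had none that met the naming rule at this resolution, and its values are from a cluster of 134 cells at resolution 1.2. A UMI of *Cd4* was found in 5.41%, 4.57% and 4.27% of the Tcf7-Ccr7 cells of WT1, WT2 and KO2. Over all T cell clusters of these libraries it was found in 0.865%, 0.531% and 0.396%. *Cd8b1* was found in 93.6%, 87.8% and 92.4% of the Tcf7-Ccr7 cells. The part of CD4 T cells in the Tcf7-Ccr7 levels below was not tested. A further KO1 cluster of 778 cells with *Tcf7*, *Il7r*, *Slamf6* and *Bcl2* among its leading genes met the rule for no state and was left among the unnamed T cell clusters. Clusters with *Zeb2*, *Gzma* and *S1pr5* among their leading genes, which mark terminal effectors (the Zeb2-Cx3cr1 clusters), held 256, 982, 1150 and 1225 cells in WT1, WT2, KO1 and KO2. In WT1 a cluster of 1030 cells with *Klrg1*, *Cx3cr1* and *Gzma* among its leading genes did not meet the rule either. Cycling and interferon-stimulated clusters were also named, and 1 mixed KO1 cluster of 167 cells was left out of the T cells. It had *Prss34*, *Mcpt8* and *Fcer1a*, genes of basophils and mast cells, among its leading genes beside the cycling genes *Lig1*, *Rrm2* and *Mcm5*. A UMI of *Cd8b1* was found in 98.2% of its cells and one of *Cd3e* in 93.4% (median of 6361 UMIs), against 94.8% and 70.1% in a KO1 myeloid-like cluster of nearly the same depth (6409 UMIs), so that the shares lie little above background for *Cd8b1*. It had 1596 CPM of *Cd8b1*, against 850 in the myeloid-like and 2195 in the T cell clusters of KO1, and what its cells are was not tested. They are absent from the KO1 values of the T cell and cycling clusters. The cycling class is itself mixed, since 1 of its clusters in each of WT1, WT2 and KO2 had more erythroid than cycling markers among its 10 leading genes. Because states were built from the same cells, their levels are a description with no test, and the number of libraries in which a state lay above or below the other T cell clusters of its library is given.

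The selectin ligand *Selplg* was low in the Tcf7-Ccr7 clusters and high in the Zeb2-Cx3cr1 clusters. It had 971 CPM in the Tcf7-Ccr7 clusters of WT1, 1099 in WT2, 1142 in KO2 and 975 in KO1 at resolution 1.2. The Zeb2-Cx3cr1 clusters had 1713, 1725, 1614 and 1699 CPM in WT1, WT2, KO1 and KO2, above every Tcf7-Ccr7 cluster. The cycling class, with its erythroid-marked clusters, had 1036, 1018, 1283 and 1273 CPM in the same order, below the rest of the T cells in 4 of 4 libraries. *Cd44* went the other way in the terminal effector clusters. It had 54.8, 50.3, 54.1 and 47.4 CPM there, below the rest in 4 of 4 libraries, with a median log2 difference of −0.36. Its highest level was outside the T cells, with 157, 143, 193 and 187 CPM in the myeloid-like clusters, which with the other clusters left out of the T cells, the mixed KO1 cluster and the small clusters included, held 14.0%, 17.4%, 21.3% and 18.8% of its UMIs.

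The LFA-1 beta chain *Itgb2* separated the states most clearly. In the Tcf7-Ccr7 clusters it had 308 CPM in WT1, 320 in WT2 and 303 in KO2, and 287 in KO1 at resolution 1.2. In the Zeb2-Cx3cr1 clusters it had 703, 708, 729 and 806 CPM in WT1, WT2, KO1 and KO2, and in the unnamed T cell clusters 535, 506, 511 and 539 CPM. The 3 ranges did not overlap in any library. The median log2 difference from the other T cell clusters was −0.73 for Tcf7-Ccr7 and 0.53 for Zeb2-Cx3cr1 clusters. The KO1 cluster with *Tcf7* and *Il7r* that was left unnamed had 398 CPM, the lowest of that library's T cell clusters. Its partner *Itgal* shared only part of this pattern. It was low in the Tcf7-Ccr7 clusters, with 156, 143 and 138 CPM in WT1, WT2 and KO2 and 130 in KO1 at resolution 1.2, but in the Zeb2-Cx3cr1 clusters its median log2 difference was 0.04, with 3 libraries above and 1 below. The ratio of *Itgb2* to *Itgal* UMIs was therefore between 1.97 and 2.24 in the Tcf7-Ccr7 clusters of 3 libraries and between 3.51 and 4.10 in the Zeb2-Cx3cr1 clusters of 4.

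The partners of *Itga4* lay on opposite sides of the other T cells in the Tcf7-Ccr7 clusters. *Itgb1* was above the other T cell clusters there in 3 of 3 libraries, with 329 CPM in WT1, 442 in WT2 and 413 in KO2. *Itgb7* was below them in 3 of 3, with 636, 873 and 584 CPM. In KO1 at resolution 1.2 the levels were 200 CPM for *Itgb1* and 509 CPM for *Itgb7*. *Itga4* itself had 202, 196 and 178 CPM in these clusters of WT1, WT2 and KO2, with a median log2 difference of −0.01, but in KO1 at resolution 1.2 it had 153 CPM, with a log2 difference of −0.58. The ratio of *Itgb7* to *Itgb1* UMIs was 1.93, 1.98 and 1.41 in the Tcf7-Ccr7 clusters of WT1, WT2 and KO2, against 4.91, 3.19 and 2.27 over all T cell clusters of these libraries, and 4.14 in KO1. In the Zeb2-Cx3cr1 clusters *Itgb1* was above the rest in 4 of 4 libraries, by 0.03 to 0.60 on the log2 scale, while *Itgb7* was below in 3 of 4. In the interferon-stimulated clusters both *Itga4* and *Itgb1* were below the rest in 4 of 4 libraries, with median log2 differences of −0.30 and −0.41.

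*Itgae* reached at most 5 UMIs in a Tcf7-Ccr7 cluster and at most 11 in the Zeb2-Cx3cr1 clusters of a library, so that no order of states can be read for it. None of the cycling cells of KO1 and none of the interferon-stimulated cells of WT1 held an *Itgae* UMI, which allows up to 1.32 and 7.75 CPM. In B-like cells it had 0, 0, 1 and 3 UMIs in WT1, WT2, KO1 and KO2. None of the 105 B-like cells of WT1 thinned to 1000 UMIs held one, which allows a share of up to 2.86%, above the share in T cells, so that free RNA and expression could not be told apart at this depth. Before thinning, the median depth in WT1 was 2297 UMIs for B-like cells and 3557 for the T cell clusters.

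Counted over the 8 members, 2 lay above the other T cell clusters in each of the 3 libraries with Tcf7-Ccr7 clusters (*Itgb1*, and *Itgae* on 3 to 5 UMIs a library) and 4 below (*Selplg*, *Itgal*, *Itgb2* and *Itgb7*), against 21.1% and 42% of the 2640 genes with a mean of at least 50 CPM. In the Zeb2-Cx3cr1 clusters 3 lay above (*Selplg*, *Itgb1* and *Itgb2*) and 1 below (*Cd44*), against 14.5% and 39% of genes. In the cycling class, erythroid-marked clusters included, none lay above and 5 below (*Selplg*, *Itgal*, *Itgb2*, *Itga4* and, on 0 to 8 UMIs a library, *Itgae*), against 39.9% and 32.7%. In interferon-stimulated clusters none lay above and 5 below (*Selplg*, *Itgb2*, *Itga4*, *Itgb1* and *Itgb7*), against 13.6% and 29.1%. *Itgae* is below 50 CPM and so not among the genes of this background, and its places in these counts give no order of states. In KO1 at resolution 1.2 it lay below the rest in the Tcf7-Ccr7 cluster (log2 difference −0.04).

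**Figure D4:**
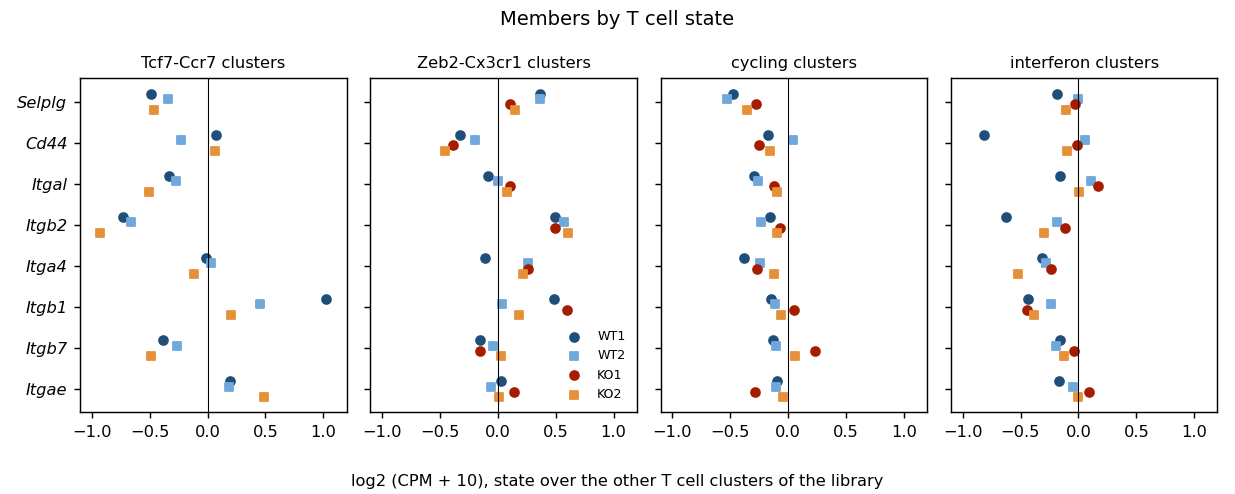
log2 ratio of each member in a state over the other T cell clusters of the same library (CPM plus a pseudocount of 10), with a point for each library. Itgb2 and Selplg lie to the left in the Tcf7-Ccr7 clusters and to the right in the Zeb2-Cx3cr1 clusters of every library shown, and KO1 has no Tcf7-Ccr7 cluster at this resolution.

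Within states, the log2 fold change of *Itgb7* was negative in each of the states compared. In the unnamed T cell clusters it had 869 CPM in WT1 and 661 in KO1, and 1094 in WT2 and 824 in KO2, so that both *Bcl3-/-* libraries lay below both WT libraries. The log2 fold change was −0.43 (standard error 0.14, adjusted p = 0.349 in edgeR, 0.251% of genes called). With the replicate block it was −0.43 (standard error 0.07, edgeR, adjusted p = 6.15e-07, 9.58% called), and *Itgb7* was the 1 member called. This class holds different clusters in each library. In KO1 it includes the cluster with *Tcf7* and *Il7r*, which had 540 CPM against 716 and 678 in the library's other unnamed clusters, and in WT1 the cluster with *Klrg1* and *Cx3cr1*, which had 914 CPM against 736 to 902. Without these clusters, a comparison added after their values had been seen, the levels were 850 and 1094 CPM in WT1 and WT2 and 701 and 824 CPM in KO1 and KO2. The log2 fold change was then −0.38 (edgeR, adjusted p = 0.398), and −0.37 with the block (edgeR, adjusted p = 0.000453, 8.37% called). In the Zeb2-Cx3cr1 clusters the levels were 739, 1013, 606 and 829 CPM in WT1, WT2, KO1 and KO2, and the genotypes overlapped. The overlap was between WT1 and KO2, and the WT1 cluster with *Klrg1* and *Cx3cr1* (914 CPM), which is not in this class, lay above KO2. The class held 256 cells in WT1 and 1150 in KO1, and with markers at 1.5-fold it held 1286 in WT1. The genotypes were not compared at that setting. The log2 fold change in the Zeb2-Cx3cr1 clusters was −0.33 in edgeR (adjusted p = 0.526, 0.408% called) and −0.32 with the block (adjusted p = 0.0648, 3.43% called). In the interferon-stimulated clusters it was −0.30 (edgeR, adjusted p = 0.505, 1.32% called) and −0.29 with the block (adjusted p = 0.257, 1.97% called), with only 110 cells in WT1. The Tcf7-Ccr7 clusters could be compared at resolution 0.4, where all libraries had one, and *Itgb7* had a log2 fold change of −0.43 with the block (edgeR, adjusted p = 0.00794, 2.33% called). At resolution 1.2 it was −0.45 (adjusted p = 0.102) and with 30 principal components −0.34 (adjusted p = 0.261), both from edgeR with the block. Whether the difference varies among the states was not tested. Cycling clusters were not compared between the genotypes, since some of them had more erythroid than cycling markers among their leading genes. Their *Itgb7* levels were 764, 983, 762 and 842 CPM in WT1, WT2, KO1 and KO2, nearly equal in chimera 1, where 54.6% of WT1 and 54.8% of KO1 cells thinned to 1000 UMIs held a UMI of it. In the interferon-stimulated clusters thinned to 2000 UMIs, the mean share was 0.763 percentage points higher in Bcl3-/- cells (exact permutation p = 1). None of the other 7 members was called in any of these states, with or without the block. With KO2 left out, *Itgb1* was called in the interferon-stimulated clusters (log2 fold change −0.84, edgeR, adjusted p = 0.0242), a fit that sets KO1 (118 CPM) against WT1 (121) and WT2 (278) and so holds the difference between the chimeras. Within chimera 1 the log2 difference was −0.05.

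**Figure D5:**
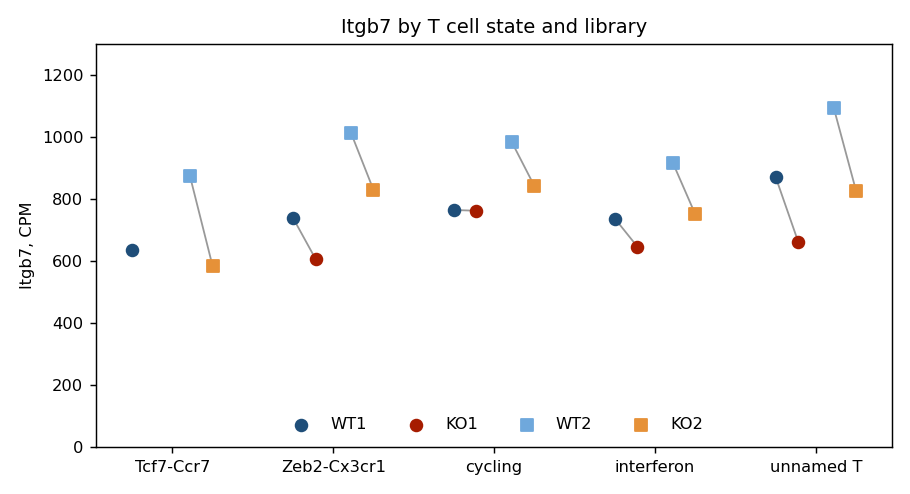
CPM of Itgb7 in each T cell state and library, with lines joining the WT and Bcl3-/- library of a chimera (circles, chimera 1; squares, chimera 2). The Bcl3-/- library is the lower of each pair shown, by least in the cycling clusters of chimera 1, where WT1 had 764 and KO1 762 CPM, and KO1 has no Tcf7-Ccr7 cluster at this resolution. The cycling class of KO1 lacks the mixed cluster, which had Lig1 and Mcm5 among its leading genes.

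Lists of genes that act with the members were compared in the same fits. Of 20 integrin activators and cytoskeletal links, all tested, 1 rose in *Bcl3-/-* cells in edgeR without a block. This was *Rassf5* (RAPL), which links active Rap1 to LFA-1, with 86.9 and 81.0 CPM in WT1 and WT2 and 135 and 158 CPM in KO1 and KO2. Its log2 fold change was 0.79 (standard error 0.10, edgeR, adjusted p = 0.0354). With the block a second rose, *Cyth1*, which encodes cytohesin-1, a regulator of the *Itgb2* chain, from 46.5 and 35.4 CPM to 57.1 and 74.6 CPM (log2 fold change 0.67, edgeR, adjusted p = 0.00442). Of 13 tested genes for selectins, further selectin ligands and the enzymes that build their glycans, none was called without and 2 rose with the block. These were the sialyltransferase *St3gal4* (33.9 and 31.3 CPM in WT1 and WT2, 44.9 and 45.0 CPM in KO1 and KO2, log2 fold change 0.45, edgeR, adjusted p = 0.0048) and the galactosyltransferase *B4galt1* (log2 fold change 0.31, edgeR, adjusted p = 0.0234). Of 5 tested integrin ligands and other adhesion receptors, none was called without and 3 fell with the block, all 5 having negative values. *Icam1*, itself a ligand of LFA-1, had 54.1 and 56.8 CPM in WT1 and WT2 and 41.4 and 44.4 CPM in KO1 and KO2 (log2 fold change −0.39, edgeR, adjusted p = 0.00675). *Icam2* (−0.32, adjusted p = 0.0198) and *Amica1*, which encodes JAML (−0.34, adjusted p = 0.0145), fell in the same edgeR fit. Over T cell clusters alone, 1 of these 3, *Icam1*, was still called with the block (edgeR, adjusted p = 0.0471). Of 11 tested further integrin subunits none was called in either fit. Their background is the 0.363% and 9.65% of all genes given above.

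*Itgam*, the alpha chain of Mac-1 and another partner of *Itgb2*, had 20.6, 28.4, 23.2 and 34.2 CPM in the Zeb2-Cx3cr1 clusters of WT1, WT2, KO1 and KO2 and 2.66, 1.99 and 1.49 CPM in the Tcf7-Ccr7 clusters of WT1, WT2 and KO2. The Tcf7-Ccr7 values are at or below the level of 3 counts (2.66, 2.98 and 4.46 CPM). The direction was that of *Itgb2*, but *Itgam* was chosen after its values had been seen, so that nothing further is read from it. State levels of other partners of *Itgb2* are not given here.

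The genes most like each member over the 39 T cell clusters were found by the correlation of log2 CPM after each library had been centred. The points share libraries and depth, so the correlations are given as a description. *Selplg* was most like *Laptm5* (Pearson r = 0.94), *St3gal6* (0.91), a sialyltransferase, and *Gabarapl2* (0.88). *Itgb2* was most like *Ctsd* (0.90), *Klrg1* (0.89), a receptor of terminal effectors, and *Dapk2* (0.89). *Itgb7* was most like *S100a11* (0.88), *S100a10* (0.87) and *Ech1* (0.86). *Itga4* was most like *Ahnak* (0.88), *S1pr1* (0.85), the receptor for exit from lymphoid tissue, and *Fam65b* (0.83). *Itgb1* was most like *Klf3* (0.71), *Stk38* (0.70) and *Klf2* (0.67). *Itgal* was most like *Ptprc* (0.85), *Tgoln1* (0.80) and *Ugcg* (0.78), and *Cd44* was most like *Tln1* (0.75), which encodes talin, *Rasgrp1* (0.69) and *Atxn1* (0.67). *Itgae* gave *Arl5c* (0.69), *Clk1* (0.68) and *Rps21* (0.68) on counts too low to rank. Among the members themselves, *Itgal* and *Itga4* were most alike (0.68), followed by *Selplg* with *Itgal* (0.60) and with *Itgb2* (0.59), and *Itgb1* and *Itgb7* had the lowest value (−0.35). The value of *Itgal* and *Itga4* rested on 3 unnamed clusters, 1 each in WT1, WT2 and KO2, whose median depth (1786, 1306 and 1830 UMIs per cell) was under 2/3 of that of their library. These had 340, 255 and 264 CPM of *Itgal* and 390, 280 and 275 CPM of *Itga4*. Over the other 36 clusters, a choice made after seeing the values, the correlation of *Itgal* and *Itga4* was 0.29, that of *Itgal* and *Ptprc* 0.67 and that of *Cd44* and *Tln1* 0.57, while *Selplg* and *Itgal* were then most alike (0.73) and *Itgb1* and *Itgb7* were at −0.40. The part of depth or RNA quality in these values was not tested.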

How the data were processed

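Droplet libraries (10x 3′ v2) of GP33 tetramer-binding CD8+ T cells were analysed from the UMI counts per gene and cell that the authors deposited as matrices of all barcodes. The submitters' processing notes name Cell Ranger 2.2.0, bcl2fastq 2.17 and mm10, and the strand setting of the counting is not given in the sources used here. WT1 had 21193300 UMIs over all its barcodes, WT2 20358780, KO1 22922219 and KO2 22672343.

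A barcode was kept as a cell from 500 genes upwards, if no more than 10% of its UMIs were mitochondrial, and no doublet caller was run. Each library was clustered in Seurat 5.3.0 (2000 variable genes without the adhesion genes, 15 principal components, resolution 0.8). A cluster was named where at least 3 markers of a class were 2-fold above the rest, and those smaller than 1% of their library joined no class. A cluster with 3 basophil or mast cell genes among its 10 leading genes was left out of the T cells, a rule added after seeing the data. Counts were summed per library or class and tested with edgeR 4.0.16 (quasi-likelihood, TMM, Benjamini-Hochberg adjustment over all genes tested), with DESeq2 1.42.0 as an alternative. State levels were compared as log2(CPM + 10). Shares of cells have exact Clopper-Pearson 95% intervals, and intervals and upper limits (3 counts) cover counting error only.

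Same-numbered libraries came from the same chimera, which is where the pairing comes from. Their deviations correlated over 6863 genes above 10 CPM (Pearson r = 0.29 between WT1 minus WT2 and KO1 minus KO2, which is across genes), so the fit with chimera as a replicate block is given beside each result whose call it changed. The edgeR test without a block was tested on simulated data for the comparison over all cells, where 200 genes were changed. The simulated counts held no difference between the chimeras, and the fit with the block was not tested in this way. At a dispersion of 0.005 it recovered 72% of genes changed 1.5-fold and 8.5% of those changed 1.25-fold, and at 0.02 it recovered 10.5% and 0%. The common dispersion of the real libraries was 0.0145 with genotype alone and 0.00692 with genotype and chimera.

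The members and the lists of related genes were chosen with earlier results of these data known. All 8 members are reported. Of each related list, the genes called without or with the block are named (at most the 4 with the largest change), and for each member the 3 genes most like it among genes with a mean of at least 50 CPM. Alternatives were the replicate block, DESeq2, library totals as scaling, no filter on low counts, other cell filters, T cell clusters alone, equal depth, other clustering settings, other thinning depths, a pseudocount of 1, leaving out clusters of low depth or led by genes of a named state (both added after seeing the data) and leaving out each library in turn.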

Additional observations from a re-analysis of the deposited data

Results flagged for a closer look

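In both chimeras, *Cd44* was higher in Bcl3-/- than in WT cells of the unnamed T cell clusters, by 0.040 in chimera 1 and 0.28 in chimera 2 on the log2 scale, and lower in the Zeb2-Cx3cr1 clusters, with values of −0.018 and −0.085. The opposite direction in the 2 states drew attention, and the difference between the states was not tested. *Selplg* showed the same kind of split. It was higher in Bcl3-/- cells of the interferon-stimulated clusters (0.33 in chimera 1 and 0.082 in chimera 2) and of the unnamed T cell clusters (0.059 and 0.17), and lower in the Zeb2-Cx3cr1 clusters (−0.086 and −0.022). The unnamed class holds different clusters in WT1 and KO1. Without those led by *Cx3cr1* or *Tcf7* its chimera 1 value was 0.18 for *Selplg* and 0.048 for *Cd44*. The Zeb2-Cx3cr1 class is unlike too, with 256 cells in WT1 and 1150 in KO1. It had 54.8 CPM of *Cd44* and 1713 of *Selplg* in WT1, and 54.1 and 1614 CPM in KO1. The WT1 cluster led by *Cx3cr1*, which is not in it, had 74.7 and 1643 CPM. The chimera 1 values of the Zeb2-Cx3cr1 class therefore depend on how that cluster is named. These differences between the states were not tested either, and neither gene was called between the genotypes in any of these states.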

How the results depend on the processing

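The log2 fold change of *Itgb7* was negative in all 39 of 39 alternative genotype values, and 261 of 297 alternative genotype values of single members kept their sign. These values are fits of the same libraries and are not independent. They cover all cells and the unnamed, Zeb2-Cx3cr1 and interferon-stimulated clusters, but not the cycling or Tcf7-Ccr7 clusters. How many of all genes kept their sign in the same way was not counted. Over all cells, 42 genes were called, against 1116 with the replicate block, 195 with DESeq2, 80 with library totals as scaling, 651 over T cell clusters with the block, 774 at equal depth with the block, and 40 to 228 with 1 library left out. No member was called without the block, and 1 (*Itgb7*) with it in each of the 3 fits with the block. The block changed the call of no other member in any state or over all cells. At equal depth the signs turned for *Cd44* (−0.040, and −0.032 with the block), *Itgal* (−0.059 and −0.053) and *Itgb1* (−0.024 and −0.058). With 1 library left out the values ran from −0.081 to 0.21 for *Cd44*, −0.075 to 0.16 for *Itgal*, −0.11 to 0.27 for *Itga4* and −0.61 to 0.53 for *Itgb1*.

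In the unnamed T cell clusters 26 genes were called, against 992 with the replicate block and, without the WT1 and KO1 clusters led by *Cx3cr1* or *Tcf7*, 13, or 853 with the block. Both fits with the block called 1 member, and 43 to 130 genes were called with 1 library left out. *Itgb1* turned to −0.0076 with the block and −0.023 with the block and without these clusters, and *Itgb2* to 0.091 without these clusters (0.090 with the block), 0.0049 with 30 principal components, 0.0077 at resolution 0.4 and 0.035 at resolution 1.2. Leaving out 1 library gave −0.061 to 0.33 for *Cd44*, −0.19 to 0.11 for *Itgal*, −0.16 to 0.21 for *Itga4*, −0.71 to 0.61 for *Itgb1* and −0.090 to 0.057 for *Itgb2*. In the Zeb2-Cx3cr1 clusters 35 genes were called, against 294 with the block and 50 to 358 with 1 library left out, *Selplg* turned to 0.0058 with 30 principal components, and leaving out 1 library gave −0.20 to 0.080 for *Cd44* and −0.35 to 0.41 for *Itgb1*. WT1 had no such cluster at resolution 0.4, which gave no value there. In the interferon-stimulated clusters 91 genes were called, against 23 at resolution 0.4, 149 at 1.2, 24 with 30 principal components, and 24 to 199 with 1 library left out, when 0 to 1 members were called. *Itga4* turned to −0.025 with the block, and leaving out 1 library gave −0.30 to 0.34 for *Itga4* and −0.84 to 0.58 for *Itgb1*.

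For the share of cells with a UMI, in percentage points, *Cd44* turned to 3.22 without thinning and 0.306 at 2000 UMIs, and *Itgb1* to 5.30 without thinning, 1.76 at 2000 UMIs and 0.105 over T cell clusters. Leaving out 1 library gave −0.892 to 0.876 for *Cd44*, −1.55 to 1.72 for *Itgal*, −0.990 to 1.69 for *Itga4* and −7.13 to 6.88 for *Itgb1*. Across states, 8 of 320 alternative values moved by more than 1 SD. Between 20 and 25 pairs of a member and a state lay on 1 side in every library, against 20 in the clustering reported. Of those 20, the median of 0 changed sign, but some no longer lay on 1 side: *Selplg* in the interferon-stimulated clusters at resolution 1.2, *Itgb7* there with 30 principal components, *Cd44* in the Zeb2-Cx3cr1 clusters with adhesion genes kept for clustering or markers at 1.5-fold, *Itgb1* there with adhesion genes kept, and *Itgae* in the Tcf7-Ccr7 clusters at 4 settings. Medians of pairs near 0 changed sign, such as *Cd44* in the Tcf7-Ccr7 clusters, whose median went from 0.065 to −0.045 at resolution 1.2. The cause of these changes was not tested. With 1 library left out, the lone library of a genotype is assumed to vary like the pair of the other. The libraries WT1 and WT2 differed in median depth by more than KO1 and KO2, and *Itgae*, at 22 to 54 UMIs per library, allows no order of states.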
